A study of Homo sapiens with 13 samples.

Results

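The 6 human IRX homeobox genes, IRX1 to IRX6, were followed in human embryonic stem cells (hESCs) exposed to bone morphogenetic protein 4 (BMP4). They were chosen by gene symbol, as the 6 IRX genes among 61546 features listed in both count tables, and because their time and LDN dose profiles were known to include a dip and recovery of IRX2. Their profiles are therefore given as a description, without a test. The cells were RUES2, an established hESC line, carrying a GFP::SMAD4 fusion that labels the signal transducer SMAD4, and they were grown in mTeSR1 medium with ROCK inhibitor (RI). The time series comprised 7 libraries of total RNA depleted of ribosomal RNA, with 2 at 0 h and 1 each at 4, 12, 20, 28 and 42 h of 100 ng/mL BMP4 with 5 µM IWP2, an inhibitor of Wnt secretion. The labels give the 0 h libraries the same treatment, and they were read as cells at its start. The dose response comprised 6 polyA-selected libraries at 5 h, with 1 each for BMP4, IWP2 and RI with 0, 10, 30, 100 or 300 nM of the BMP receptor inhibitor LDN-193189 (LDN), and 1 for untreated cells in mTeSR. More LDN means less BMP signaling.

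IRX genes encode transcription factors of the TALE class of homeodomain proteins, named after the Iroquois genes of the fly. They act in patterning of the neural plate, heart, limb and other organs, and often as repressors. In mammals they lie in a pair of clusters, and genes at matching places in the clusters tend to have related expression. In GENCODE release 44 on GRCh38, chromosome 5 held IRX4 (1877413 to 1887236, minus strand), IRX2 (2745845 to 2751677, minus strand) and IRX1 (3595832 to 3601403, plus strand), within 1.72 Mb. Chromosome 16 held IRX3 (54283304 to 54286787, minus strand), IRX5 (54930865 to 54934485, plus strand) and IRX6 (55324203 to 55330756, plus strand), within 1.05 Mb. All 6 genes are annotated as protein coding.

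BMP receptors act through SMAD proteins, which bind DNA at short motifs, so stretches upstream of members are shown. They are those of the 3 of 6 members with a RefSeq window on GRCh38.p14 here, IRX1, IRX2 and IRX4, while IRX3, IRX5 and IRX6 had no window in the table used. Each run below gives the 250 bases before an annotated start, 5′ to 3′ on the strand of the gene, for IRX2 at chr5:2751678-2751927 (minus strand), IRX1 at chr5:3595582-3595831 (plus strand) and the most upstream of the annotated starts of IRX4 at chr5:1887180-1887429 (minus strand). Capitals mark matches on either strand to GGCGCC, a motif bound by SMAD1 and SMAD5, and CAGAC, a motif bound by SMAD4.
IRX2: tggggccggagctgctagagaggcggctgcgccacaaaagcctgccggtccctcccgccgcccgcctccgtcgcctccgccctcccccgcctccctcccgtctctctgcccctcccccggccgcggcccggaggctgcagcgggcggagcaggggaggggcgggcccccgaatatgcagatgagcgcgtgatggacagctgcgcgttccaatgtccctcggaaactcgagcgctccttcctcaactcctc
IRX1: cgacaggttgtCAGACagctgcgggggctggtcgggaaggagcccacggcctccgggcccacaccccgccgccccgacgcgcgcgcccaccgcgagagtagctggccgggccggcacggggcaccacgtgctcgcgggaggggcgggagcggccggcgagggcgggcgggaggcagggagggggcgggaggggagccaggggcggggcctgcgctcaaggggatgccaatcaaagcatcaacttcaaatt
IRX4: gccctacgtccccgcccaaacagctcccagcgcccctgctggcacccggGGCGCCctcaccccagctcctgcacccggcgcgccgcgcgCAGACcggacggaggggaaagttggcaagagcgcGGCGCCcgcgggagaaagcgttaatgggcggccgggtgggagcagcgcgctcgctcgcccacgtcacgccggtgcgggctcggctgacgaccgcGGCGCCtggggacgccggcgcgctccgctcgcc

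The run upstream of IRX2 held neither motif. That of IRX1 held 1 match to CAGAC, and that of IRX4 held 3 matches to GGCGCC and 1 to CAGAC. IRX4 has other annotated starts, and of the windows at these, that at 1886945 held no match to any motif and that at 1882925 held 1 to CAGAC and none to GGCGCC. ACANNTGT, a motif bound by Iroquois proteins, was in none of the runs. Of 35116 RefSeq windows of 250 bases before to 50 after a start, 19.2% held GGCGCC, 45.3% held CAGAC and 5.62% held ACANNTGT, counting both strands. Windows of that same length held 1 match to CAGAC for IRX2 and 2 for IRX1, since each has 1 that is not within the run shown. G and C made up 73.3% of the window of IRX2, 76.0% of that of IRX1 and 75.0% of that of IRX4 at the start shown. The median over all windows was 58.7%, so the shares above come from windows of a different composition. The motifs do not share bases in the runs shown. A match describes letters in a window and is not a measured binding site.

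The libraries held 37957385 to 71333471 counts in the time series and 15600931 (untreated) to 33989998 in the dose response. Levels are given in CPM, the counts scaled to a common library size with TMM (trimmed mean of M values) factors within each experiment, and 3 counts corresponded to 0.0424 to 0.0743 CPM over time and 0.0874 to 0.199 CPM in the dose response. Intervals in brackets are exact 95% intervals, which cover counting error only, and only 0 h had more than 1 library, so no other level has a replicate error. Nothing in the labels says whether the 0 h libraries came from separate cultures. Mitochondrial genes took 7.6% of the counts in 0 h replicate 1 and 7.89% in that of untreated cells, but no more than 4.49% in any other library. The experiments differed in RNA kit and library preparation, so their levels are not compared with each other. In bulk RNA, fewer cells expressing a gene and less RNA per cell cannot be told apart.

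IRX2, an IRX gene with roles in neural and limb patterning, was low at 4 h and back near its starting level by 20 h. It had 3606 and 6718 counts in the 0 h libraries and 635, 1829, 6232, 7220 and 3428 at 4, 12, 20, 28 and 42 h. In CPM these were 89.3 and 94.9 at 0 h, then 12.3, 30.8, 104, 127 and 68.4. The 4 h library was the lowest and the 28 h library the highest, with 12 h and 42 h below both 0 h libraries and 20 h and 28 h above both. The 0 h mean was 92.1 ± 3.96 CPM (SD, n = 2). Against the pooled 0 h counts, the 4 h level was 7.57-fold lower (6.98 to 8.21), and the 28 h level was 1.37-fold higher (1.33 to 1.41). From 4 h to 28 h the level differed 10.3-fold (9.54 to 11.2), with 12 h and 20 h between them. The difference between 0 h and 20 h was 1.12-fold (1.08 to 1.16), small beside the differences at 4 h and 12 h.

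The log2 ratio of IRX2 at 4 h over 0 h, on CPM plus 0.1, was −2.90, and 9 of the 15976 genes averaging 1 CPM or more over time had a ratio as low or lower. Of the 6 members, 4 passed this minimum (IRX1 to IRX4), and 1 of the 4, IRX2, was at least 2-fold lower at 4 h, where 1.12% of all genes were. None of the 4 was at least 2-fold higher at 4 h, where 4.35% of genes were. Between the 0 h libraries themselves, 2.02% of the same genes differed at least 2-fold in either direction. The SD of the log2 ratio between those libraries was 0.421. A fall of at least 2-fold by 4 h followed by a gain of at least 2-fold by 20 h was seen in 42 genes, or 0.263% of those tested, and IRX2 was among them. This pattern is the one that chose IRX2, and the count was added after the profiles had been seen. The member closest outside it was IRX3, with log2 ratios of −0.82 at 4 h over 0 h and 1.36 at 20 h over 4 h, where IRX2 had −2.90 and 3.07.

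**Figure D1:**
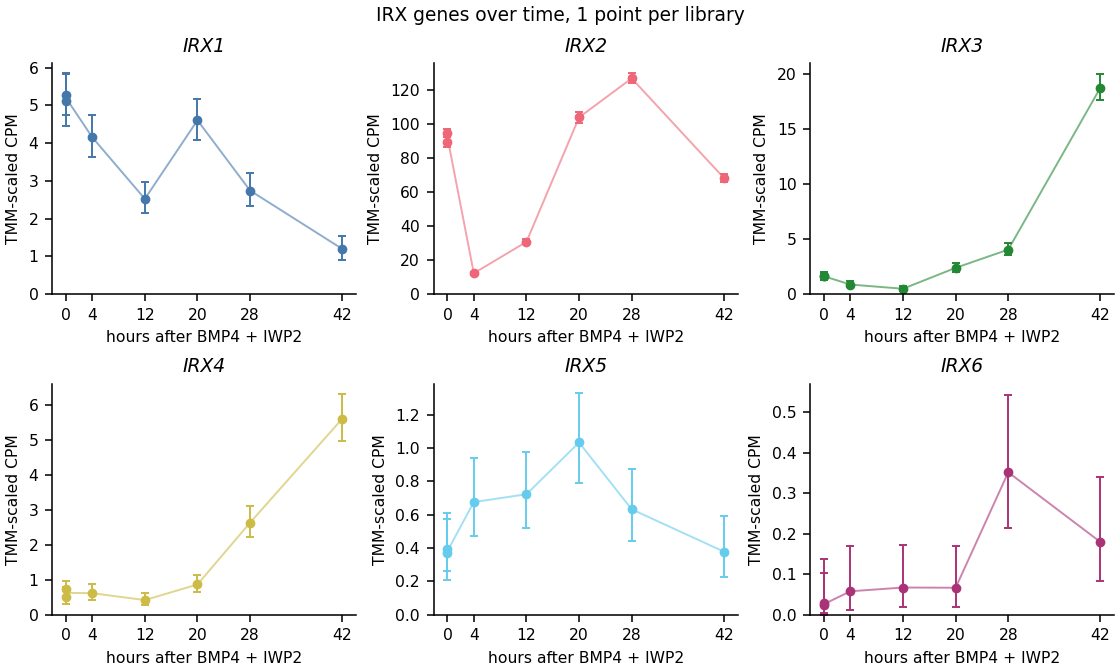
TMM-scaled CPM of each IRX gene against hours of BMP4 with IWP2, with 1 point per library, exact 95% counting intervals as bars and a line through the mean at each time. IRX2 drops from about 92.1 CPM at 0 h to 12.3 at 4 h and reaches 127 at 28 h, while IRX3 and IRX4 are highest at 42 h and IRX1 is lowest there.

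IRX1, a gene of the same cluster that is expressed in developing lung, heart and nervous system, was at its lowest at 42 h. It had 207 and 373 counts in the 0 h libraries and 215, 150, 276, 156 and 60 at the later times in order. Its levels were 5.13 and 5.27 CPM at 0 h and 4.16, 2.52, 4.61, 2.74 and 1.20 CPM at 4, 12, 20, 28 and 42 h. Every later library lay below both 0 h libraries, but 20 h lay above 12 h and 28 h, so the order of levels did not follow the hours. The 0 h mean was 5.2 ± 0.101 CPM (SD, n = 2). Against the pooled 0 h counts the level at 42 h was 4.36-fold lower (3.34 to 5.78), and at 4 h 1.26-fold lower (1.07 to 1.48).

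IRX4, the remaining gene of the chromosome 5 cluster and a marker of ventricular heart muscle, was highest in the 42 h library. Its counts were 21 and 52 at 0 h and 32, 25, 52, 150 and 281 at the later times. These gave 0.520 and 0.735 CPM at 0 h, and 0.619, 0.421, 0.868, 2.64 and 5.61 CPM later. Up to 20 h all intervals overlapped those of the 0 h libraries, and 28 h and 42 h stood above all earlier libraries. The 42 h level was 8.54-fold that of the pooled 0 h counts (6.58 to 11.2). The mean of the 0 h libraries was 0.627 ± 0.152 CPM (SD, n = 2).

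IRX3, which acts in neural tube patterning and heart conduction, had the largest ratio of 42 h over 0 h among the members. Counts of 65 and 115 at 0 h were followed by 45, 29, 143, 230 and 939. The levels were 1.61 and 1.63 CPM at 0 h and 0.870, 0.488, 2.39, 4.05 and 18.8 CPM later. The 4 h and 12 h libraries were below both 0 h libraries, and 20, 28 and 42 h were above them in that order. The 12 h level was 3.32-fold lower than at 0 h (2.23 to 5.10), and the 42 h level was 11.6-fold higher (9.86 to 13.7). The low point of IRX3 was at 12 h and that of IRX2 at 4 h, the ratio of 12 h over 4 h being 0.561 (0.339 to 0.914) for IRX3 and 2.51 (2.29 to 2.75) for IRX2.

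IRX5, a regulator of potassium channel genes in the heart and the neighbor of IRX3, stayed at low levels. It had 15 and 28 counts at 0 h and 35, 43, 62, 36 and 19 at the later times. The levels were 0.372 and 0.396 CPM at 0 h and 0.677, 0.723, 1.03, 0.633 and 0.379 CPM later, so that the 20 h library was the highest and 42 h was back at the 0 h level. The ratio of 20 h over 0 h was 2.67 (1.78 to 4.04) and that of 42 h over 0 h was 0.981 (0.540 to 1.72).

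IRX6, which is known from the retina, had the lowest FPKM of the members in every library. It had 1 and 2 counts at 0 h, 3, 4 and 4 counts at 4, 12 and 20 h, and 20 and 9 counts at 28 and 42 h. The levels were at most 0.0673 CPM up to 20 h and 0.352 and 0.180 CPM at 28 h and 42 h. The ratio of 28 h over 0 h was 13 with an interval of 3.86 to 68.5, since it rests on 3 counts at 0 h.

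At 42 h, 2 of the 4 members tested, IRX3 and IRX4, were at least 2-fold higher than at 0 h, where 16.8% of all genes were, and 1, IRX1, was at least 2-fold lower, where 13.6% of genes were. IRX4 was under 1 CPM at 0 h and its mean passed the minimum through the late libraries. The log2 ratios of 42 h over 0 h were 3.46 for IRX3, 2.97 for IRX4, −2.03 for IRX1 and −0.43 for IRX2. The median log2 ratio of all genes at 42 h was 0.08 with TMM factors and −0.24 on library totals, and it lay between −0.10 and 0.11 in the other comparisons and scalings. On chromosome 5 the members thus differed in direction, with IRX4 higher and IRX1 lower at 42 h.

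Per length, in FPKM, the deposited values scaled by gene length and depth, IRX2 was the most abundant member in all 13 libraries. Its FPKM was 37.3 and 36.7 at 0 h, then 5.40, 12.8, 40.4, 47.5 and 21.9 from 4 to 42 h. The FPKM summed over the 6 genes was 41.6 and 41.2 in the 0 h libraries, 9.19 at 4 h and 52.5 at 28 h. IRX2 held 89.7% and 89.0% of this sum in the 0 h libraries, and its share was 58.8% at 4 h and 69.2% at 42 h.

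The gene ranked below IRX2 changed over time. IRX1 was next in FPKM up to 20 h, with 7.28% and 7.04% of the sum at 0 h and 28.4% at 4 h, where its own FPKM was 2.61 against 3.03 and 2.90 at 0 h. The larger share at 4 h thus came with a lower FPKM of IRX1 and a much lower one of IRX2. At 42 h IRX3 was next, with 6.84 FPKM and 21.6% of the sum, and IRX4 followed with 2.15 FPKM and 6.80%.

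**Figure D2:**
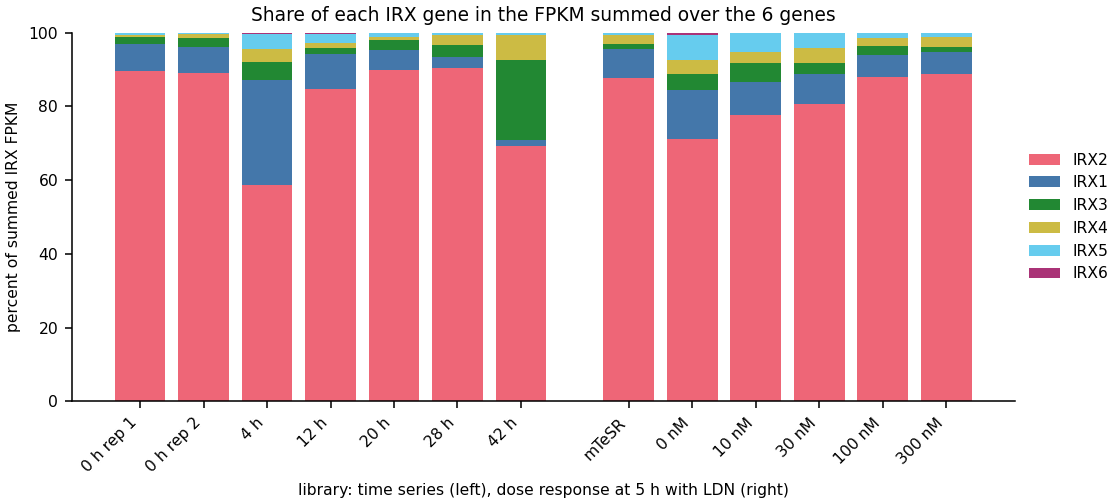
Percent of the FPKM summed over the 6 IRX genes that each gene held, 1 bar per library, with the time series on the left and the 5 h dose response on the right. IRX2 fills 89.7% and 89.0% of the bar at 0 h and 58.8% at 4 h, and IRX3 holds 21.6% at 42 h.

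The dose response asked how the genes stood at 5 h under graded BMP signaling. IRX2 was higher at each step of LDN, and thus lower with more BMP signaling. It had 344, 594, 778, 1302 and 1848 counts with 0, 10, 30, 100 and 300 nM LDN and 711 counts in untreated cells. The levels were 11.7, 17.3, 23.9, 41.8 and 55.7 CPM with rising LDN, and 47.3 CPM untreated. The 5 libraries with BMP4 were ordered by dose with no overlap of neighboring intervals, and the untreated level lay between those of 100 nM and 300 nM.

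Between the ends of the LDN range, IRX2 differed 4.77-fold (4.24 to 5.36), and without LDN it was 4.04-fold lower than in untreated cells (3.55 to 4.61). The steps were 1.48-fold (1.29 to 1.69) from 0 to 10 nM, 1.38-fold (1.24 to 1.54) from 10 to 30 nM, 1.75-fold (1.60 to 1.91) from 30 to 100 nM and 1.33-fold (1.24 to 1.43) from 100 to 300 nM. With 300 nM LDN the level was 1.18-fold that of untreated cells (1.08 to 1.29), and with 100 nM it was 0.884 of it (0.806 to 0.970). The untreated cells had neither BMP4 nor IWP2, and RI is named in their growth protocol but not in their treatment label, so effects of these agents cannot be told apart in a comparison with them.

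IRX1 and IRX2 were the 2 of 6 members that averaged 1 CPM or more in the dose response. The log2 ratio of 0 nM LDN over untreated was −2.01 for IRX2 and −0.86 for IRX1, so that 1 of the 2 was at least 2-fold lower, where 2.41% of 14877 genes were, and none was at least 2-fold higher, where 5.26% were. The log2 ratio of 300 nM over 0 nM LDN was 2.24 for IRX2 and 0.77 for IRX1, so that 1 of the 2 was at least 2-fold higher, where 0.854% of genes were, and none at least 2-fold lower, where 2.68% were. For IRX2, 18 of the 14877 genes had a ratio as high or higher.

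IRX1 had a shallower profile in the same direction. Its counts were 44, 48, 55, 61 and 87 from 0 to 300 nM LDN and 42 in untreated cells. The levels were 1.5, 1.4, 1.69, 1.96 and 2.62 CPM with rising LDN and 2.79 CPM untreated. The intervals of neighboring doses overlapped throughout, and the ratio of 300 nM over 0 nM was 1.75 (1.21 to 2.58). With 300 nM LDN the level was 0.940 of that in untreated cells (0.643 to 1.39).

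IRX4 was lowest without LDN. It had 6, 19, 28, 26 and 27 counts from 0 to 300 nM and 16 counts untreated. The levels were 0.204, 0.553, 0.860, 0.834 and 0.814 CPM, and 1.06 CPM untreated. The 3 libraries from 30 to 300 nM were indistinguishable within their intervals, and the ratio of 300 nM over 0 nM LDN was 3.99 (1.61 to 11.8). In FPKM the log2 ratio of 300 nM over 0 nM was 1.12, against 1.59 on CPM. The difference between 0 nM LDN and untreated cells was also smaller in FPKM, with 0.24 at 0 nM and 0.48 untreated. Its log2 ratio was −0.77 in FPKM and −1.94 on CPM.

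**Figure D3:**
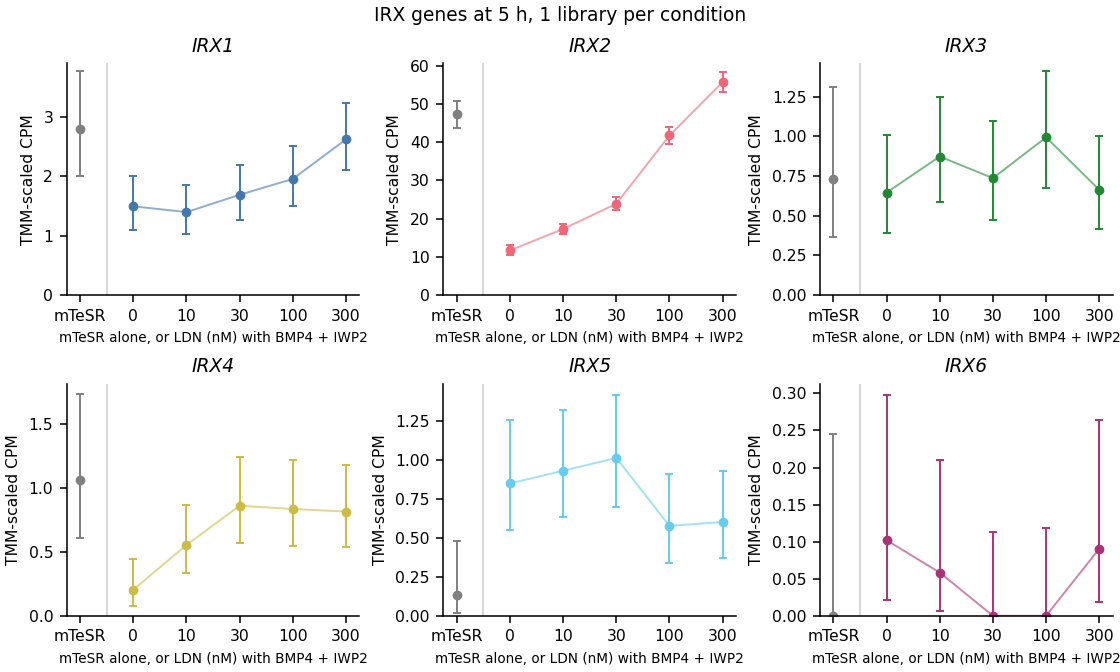
TMM-scaled CPM of each IRX gene at 5 h, in untreated cells in mTeSR (gray) and with BMP4 and IWP2 at 0 to 300 nM LDN, with 1 library per condition and exact 95% counting intervals as bars. IRX2 goes from 11.7 CPM at 0 nM to 55.7 at 300 nM with 47.3 untreated, and the other genes stay under 3 CPM.

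IRX3 showed no difference along the doses that exceeded counting error. Its counts were 19, 30, 24, 31 and 22 with rising LDN and 11 untreated, and its levels lay between 0.646 and 0.995 CPM in all 6 libraries. The ratio of 300 nM over 0 nM LDN was 1.03, with an interval of 0.530 to 2.01 that does not show the levels to be alike.

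IRX5 was lowest in untreated cells. It had 25, 32, 33, 18 and 20 counts with rising LDN, and 2 counts in untreated cells. The levels were 0.850, 0.932, 1.01, 0.577 and 0.603 CPM with BMP4 and 0.133 CPM without. The ratio of 0 nM LDN over untreated was 6.40 with an interval of 1.59 to 55.7, and that of 300 nM over untreated was 4.54 (1.10 to 40.0). The interval of 300 nM over 0 nM LDN, 0.374 to 1.33, spanned 1. IRX6 had 3, 2, 0, 0 and 3 counts with rising LDN and 0 untreated, at or below the floor of 3 counts throughout, so no ratio is given.

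The early points of the experiments come from different libraries and can be set side by side, although they differ in time (4 h and 5 h), kit and control. The log2 ratios of 4 h over 0 h and of 0 nM LDN over untreated were −2.90 and −2.01 for IRX2, −0.32 and −0.86 for IRX1, and −0.82 and −0.16 for IRX3. They were −0.02 and −1.94 for IRX4 and 0.68 and 2.03 for IRX5. The 5 h ratio of IRX4 rests on 6 counts at 0 nM LDN and that of IRX5 on 2 untreated counts. In FPKM these 5 h ratios were −0.77 for IRX4 and 1.36 for IRX5.

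IRX2 has a divergent partner, the long noncoding RNA IRX2-DT, whose start in RefSeq lies 216 bases upstream of that of IRX2 on the opposite strand. IRX2-DT had 180 and 347 counts at 0 h and 162, 133, 313, 546 and 544 at 4, 12, 20, 28 and 42 h. These were 4.46 and 4.90 CPM at 0 h and 3.13, 2.24, 5.22, 9.60 and 10.9 CPM later. Its lowest library was 12 h and its 2 highest were 28 h and 42 h, whereas IRX2 was lowest at 4 h and lower at 42 h than at 28 h. At 4 h IRX2-DT was 1.51-fold lower than at 0 h (1.27 to 1.82) and IRX2 7.57-fold lower. At 5 h the partners were closer, with IRX2-DT 3.38-fold lower (2.22 to 5.21) without LDN than in untreated cells and IRX2 4.04-fold lower. For each IRX2-DT count there were 20.0 and 19.4 IRX2 counts in the 0 h libraries. The 4, 20 and 42 h libraries had 3.92, 19.9 and 6.30. In the dose response there were 11.1 untreated, 9.30 at 0 nM LDN and 19.5 at 300 nM.

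IRX2-DT was tested for trends with edgeR's quasi-likelihood test across all genes, with Benjamini-Hochberg adjustment. It was not used in choosing the members, but it lies beside IRX2 and was listed with earlier results of these data known. Its p values are therefore not independent evidence. It rose with hours by 0.034 ± 0.0112 log2 units per hour (SE, adjusted p = 0.0443, 7 libraries). This call was lost without 0 h replicate 1 and without the 42 h library, where the adjusted p was at most 0.189. With LDN it had 37, 57, 75, 81 and 95 counts from 0 to 300 nM and 64 untreated, or 1.26, 1.66, 2.3, 2.60 and 2.87 CPM and 4.25 CPM untreated. It rose by 0.29 ± 0.0652 log2 units per dose step (SE, adjusted p = 0.00753, 5 libraries), and the call was lost without the 0 nM library (adjusted p = 0.0963). Unlike IRX2, IRX2-DT stayed below the untreated level at 300 nM, at a ratio of 0.674 (0.486 to 0.940).

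**Figure D4:**
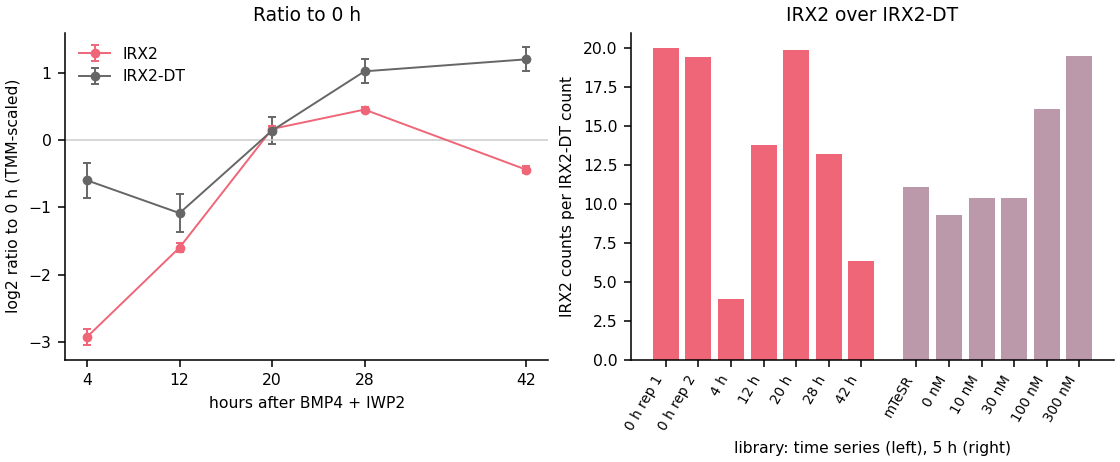
Left, log2 ratio of TMM-scaled CPM to 0 h for IRX2 and its divergent partner IRX2-DT against hours, with exact 95% counting intervals. Right, IRX2 counts per IRX2-DT count in each library, which is 20.0 and 19.4 in the 0 h libraries, 3.92 at 4 h and 6.30 at 42 h.

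CRNDE, a long noncoding RNA upstream of IRX5 on the opposite strand, did not pass either trend test (adjusted p = 0.772 for hours and 0.997 for dose, edgeR). It lay between 2.39 and 3.52 CPM in all 7 time-series libraries, while IRX5 ranged from 0.372 to 1.03 CPM. In the dose response CRNDE was at 3.92 CPM untreated and between 4.75 and 5.40 CPM with BMP4. The long noncoding RNAs annotated antisense to members had few counts, at most 9 for that of IRX1 and 8 for that of IRX3, or up to 6.25% and 9.09% of the counts of the member in the same library. Those of IRX4 and IRX6 were at 0 counts in all 13 libraries, and the pseudogene IRX1P1 had at most 4. Whether strand was used in counting is not given in the sources used here.

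Of 17 genes listed beside the clusters, 16 were matched. IRX2-DT was matched by its identifier, under the symbol C5orf38, and IRX1-AS1 was not matched. Of the matched genes, 14 were tested in each trend. None was used to choose the members, but the list was drawn up with earlier results of these data known. With hours 5 rose and 2 fell, where 19.2% of all genes rose and 17.5% fell, and the median slope was 0.0042 against −0.00011 log2 units per hour over all genes. Genes with the steepest slopes were SLC6A2, the noradrenaline transporter, at 0.098 ± 0.0244 per hour (adjusted p = 0.0161), MMP2, a gelatinase that degrades extracellular matrix, at 0.048 ± 0.0159 (adjusted p = 0.0454) and AKTIP at 0.037 ± 0.00655 (adjusted p = 0.00352), with IRX2-DT after them. MMP2 lost its call without either 0 h library, and those of SLC6A2 and AKTIP were lost without the 42 h library, with adjusted p values of at most 0.146. Without 0 h replicate 1 the number rising was 3, and without the 42 h library 1 rose and 1 fell, and LPCAT1, RPGRIP1L and ICE1 were among the calls lost.

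With LDN dose, 4 of the 14 neighbors rose and 4 fell, where 10.4% and 10.9% of 14907 genes did, and the median slope was 0.0049 against −0.00068 log2 units per step over all genes. Without the 0 nM library 2 rose and 3 fell. SLC6A2 fell by 0.68 ± 0.0771 log2 units per step (SE, adjusted p = 4.4e-05), from 3.50 CPM at 0 nM to 0.573 at 300 nM. LPCAT2, a lysophospholipid acyltransferase gene, fell by 0.35 ± 0.0474 (adjusted p = 0.000217), and MMP2 fell by 0.23 ± 0.0122 (adjusted p = 8.22e-08). These 3 lie beyond IRX6 and moved opposite to IRX2-DT along the doses, while FTO, whose introns hold long-range enhancers of IRX3, passed neither trend test (slopes of 0.00068 per hour and −0.013 per step).

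Among 12 other genes of the TALE class, which includes partners of HOX proteins, 11 were tested over time, and 3 rose and 1 fell, beside 19.2% and 17.5% of all genes. MEIS1, a HOX cofactor, rose by 0.22 ± 0.0249 log2 units per hour (edgeR, adjusted p = 0.000449), from 0.248 and 0.240 CPM at 0 h to 75.7 CPM at 42 h. PKNOX2 rose by 0.093 ± 0.0169 (adjusted p = 0.004), with 54.2 CPM at 42 h, and MKX, a regulator of tendon genes, by 0.070 ± 0.0166 (adjusted p = 0.0125). PBX3 fell by 0.030 ± 0.00812 per hour (adjusted p = 0.0223). The calls of PKNOX2 and PBX3 were lost without the 42 h library, with adjusted p values of 0.0602 and 0.161.

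Along the LDN doses 9 of the 12 TALE genes were tested, of which 2 rose and 3 fell, beside 10.4% and 10.9% of all genes. TGIF1, a corepressor of SMAD-dependent transcription, rose by 0.13 ± 0.0134 log2 units per step (edgeR, adjusted p = 2.42e-05), from 76.1 CPM at 0 nM to 110.7 at 300 nM with 113.5 untreated. PBX3 fell by 0.10 ± 0.0171 (adjusted p = 0.00102), PKNOX1 by 0.090 ± 0.0214 (adjusted p = 0.0102) and TGIF2 by 0.082 ± 0.0119 (adjusted p = 0.000329). In these TALE genes the changes from 0 to 300 nM were smaller than the 4.77-fold difference of IRX2. Over time TGIF1 was lower at 4 h, with 53.1 CPM against 119.2 and 145.4 at 0 h, and had 107 CPM at 42 h, without a trend that passed the test (adjusted p = 0.591).

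**Figure D5:**
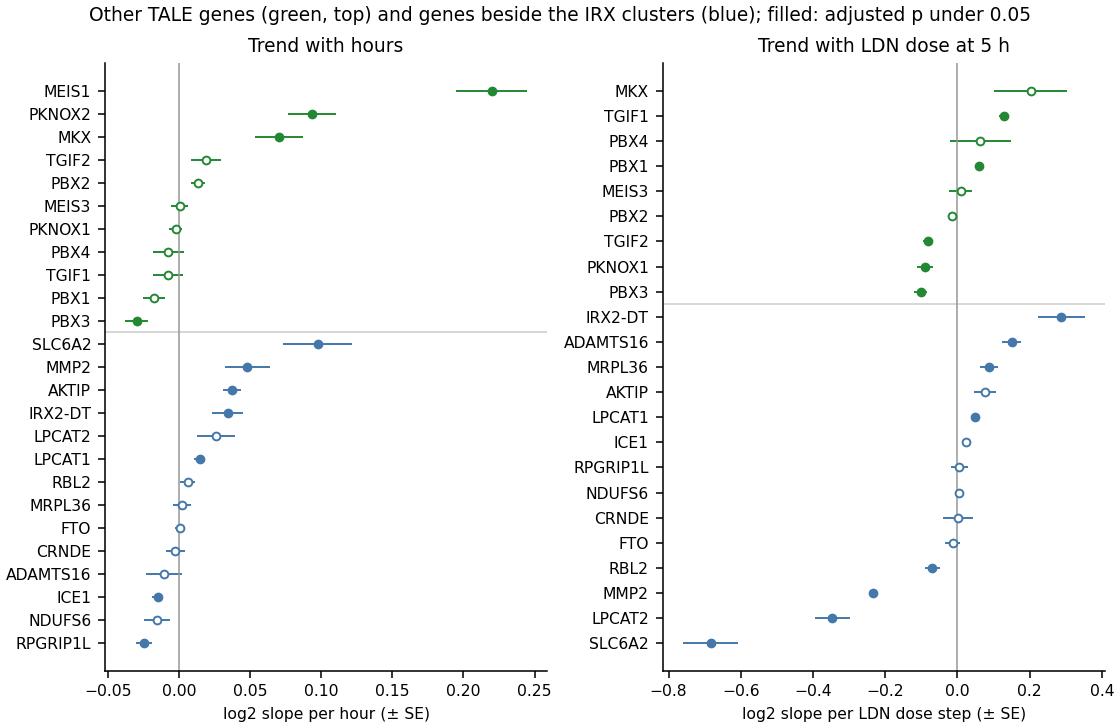
Log2 slopes with SE of the other TALE genes (green) and of the genes beside the IRX clusters (blue) against hours (left, 7 libraries) and LDN dose step (right, 5 libraries), filled where the adjusted p of edgeR's test was under 0.05. MEIS1 has the steepest slope over time, at 0.22 per hour, and SLC6A2 along the doses, at −0.68 per step.

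Readouts of BMP signaling, listed to check the treatment, moved as a group along the doses. This list was drawn up with earlier results of these data known, so its p values are not independent evidence. Of 13 genes, 12 were tested with dose and all 12 fell with LDN (median slope −0.62 per step), where 10.9% of all genes fell. Among them were the SMAD-induced ID1 at −0.36 ± 0.0392 (edgeR, adjusted p = 3.21e-05) and GATA3 at −1.17 ± 0.0892 (adjusted p = 1.75e-06). With hours 4 of 13 rose and none fell by edgeR's test, beside 19.2% and 17.5% of all genes. DESeq2's Wald test called 10 rising and no filter on low genes gave 7. All 13 were higher at 42 h than in both 0 h libraries, for example ID1 with 53.0 and 64.4 CPM at 0 h and 1592 CPM at 42 h.

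Pluripotency markers were present in every library, with 6 of 6 at 1 CPM or more and a summed level of 5570 and 6407 CPM at 0 h and 3749 CPM at 42 h. At 42 h LIN28A (2206 CPM) and POU5F1 (1399 CPM) held most of that sum. NANOG went from 137 and 117 CPM at 0 h to 1.32 CPM at 42 h, SOX2 from 366 and 378 to 14.2 CPM, and TDGF1 from 577 and 581 to 14.3 CPM. Markers of amnion-like cells were summed at 2.60 and 2.80 CPM at 0 h and 4788 CPM at 42 h, where all 6 passed 1 CPM, so the late libraries in which IRX3 and IRX4 were highest were also those with the most amnion-like marker RNA. At 5 h this sum was 121 CPM at 0 nM LDN and 3.68 CPM at 300 nM. HAND1 held 3566 CPM of the 42 h sum. GABRP held 1.83 and 1.75 CPM of the 0 h sums, and it had 0.517 CPM at 20 h and 200.5 CPM at 42 h. At 5 h GABRP was lower at 0 nM LDN (0.884 CPM) than in untreated cells (2.99 CPM). GATA3, TFAP2A, ISL1 and HAND1 were higher at 0 nM LDN than in untreated cells. Neural markers summed to at most 8.25 CPM, primitive streak markers to at most 4.46 CPM and endoderm markers to at most 4.12 CPM in any library. TBXT, which defines the primitive streak, was at or under 0.297 CPM throughout. EOMES, of the same list, went from 0.198 and 0.311 CPM at 0 h to 3.55 CPM at 20 h. MIXL1 and MESP1 stayed at or under 1.337 and 0.3793 CPM. The neural marker SIX3 went from 0.0991 and 0.155 CPM at 0 h to 6.84 CPM at 28 h. PAX6, SOX1 and LHX2 stayed at or under 1.102 CPM. The endoderm gene FOXA2 had 2.94 to 4.12 CPM in the 0 h and untreated libraries and at most 0.184 CPM in all others. SOX17, the other endoderm gene listed, went the other way, from 0.0743 and 0.0565 CPM at 0 h to 1.55 CPM at 28 h. The part of these cell types in the IRX levels was not tested.

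Over all 13 libraries, centered within each experiment, IRX3 and IRX4 had the most similar profiles of any pair of members (Pearson's r = 0.858 on log2 CPM), and IRX1 and IRX2 had r = 0.256. Genes at matching places in the clusters had r = −0.581 (IRX1 and IRX3), −0.382 (IRX2 and IRX5) and 0.416 (IRX4 and IRX6). IRX5 and IRX6 had few counts throughout. The 13 libraries share controls and time points, so the values are descriptions. Among 11313 genes that averaged 5 CPM or more in both experiments, those most like IRX2 were MTAP (r = 0.939), LRIG3 (r = 0.902) and ZFP64 (r = 0.897). Their range was far smaller than that of IRX2, with MTAP at 82.2 and 76.5 CPM at 0 h and 61.8 CPM at 4 h. Those most like IRX1 were SLC1A6 (r = 0.958), ADNP2 (r = 0.946) and FMNL3 (r = 0.943), and SLC1A6 went from 15.8 and 18.5 CPM at 0 h to 4.81 CPM at 42 h.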

How the data were processed

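Bulk RNA-seq of 13 libraries was analyzed. After trimming with Cutadapt, the authors aligned reads to GRCh38 (STAR 2.7.8a) and quantified genes by RSEM 1.3.3. The ENSEMBL release is not given in the sources used here. The deposited count tables hold RSEM expected counts, whole numbers without scaling. The FPKM tables hold values the authors normalized for length and depth, used here to compare genes and as an alternative.

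CPM were computed with TMM factors (edgeR 4.0.16) within each experiment. Genes averaging 1 CPM or more on library totals were tested, ratios used CPM plus 0.1, and differences of at least 2-fold were counted. The 5 features that are not human genes were left out of tests. Trends against hours and against LDN dose step (0 to 4, without the untreated library) were fitted with edgeR's quasi-likelihood test, adjusted after Benjamini-Hochberg at 0.05. With 1 library per dose and later time, scatter about the line was the error. The SE of a slope was derived from the test, as the absolute slope over the square root of its F statistic. Intervals on levels are exact Poisson intervals and those on ratios exact conditional binomial intervals, with the 0 h counts pooled. Fold values to 0 h given with an interval use the same pooled counts, whereas log2 ratios to 0 h use the mean CPM of the 0 h libraries.

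The members, lists and motifs were chosen with earlier results of these data known. Besides the members, the text names, from the TALE and neighbor lists, up to 4 genes per list and trend with the largest slopes among those past the test, IRX2-DT and CRNDE in any case, and the 3 genes most like IRX1 and IRX2 by Pearson's r. FTO, TGIF1 over time, and the listed markers were named outside this rule, after their values were seen. Alternatives were CPM on library totals, DESeq2 1.42.0 size factors and its Wald test, FPKM, pseudocounts of 0.01 and 0.5, no filter, log10 dose, and leaving out libraries. Software was matplotlib 3.10.9, scipy 1.17.1, pandas 2.3.3, numpy 2.4.6, Python 3.11.15 and R 4.3.3.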

Additional observations from a re-analysis of the deposited data

How the results depend on the processing

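Of 144 recalculated log2 ratios of members, 130 moved by less than the counting interval and none with at least a 2-fold difference changed direction. For IRX2 at 4 h over 0 h, library totals gave −2.75 and FPKM −2.75. At 42 h over 0 h, library totals gave −0.75 for IRX2, 3.13 for IRX3 and 2.66 for IRX4. FPKM gave −0.75 for IRX2, 2.77 for IRX3, 2.47 for IRX4 and 0.48 for IRX6. A pseudocount of 0.5 gave 3.18 for IRX3, 2.44 for IRX4 and 0.37 for IRX6. Leaving out either 0 h library gave −0.47 to −0.38 for IRX2. For IRX4 at 0 nM LDN over untreated, FPKM gave −0.77, under 2-fold. Without a filter, the genes at least 2-fold higher and lower numbered 1620 and 481 at 4 h, 4368 were lower at 42 h, 3134 and 1251 differed between 0 nM LDN and untreated, and 681 and 1794 between 300 and 0 nM. Genes with a dip and return numbered 69 in FPKM, 24 with a pseudocount of 0.5 and 111 unfiltered. Without the 42 h library 1872 genes rose and 1387 fell with hours. Leaving out 1 dose at a time gave 874 (without 0 nM) to 1423 genes rising with LDN, and 994 without 300 nM. The cause of these shifts was not tested. No paired analysis was possible because no group but 0 h has a second library. Depth limits IRX5 and IRX6 most, with at most 62 and 20 counts.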

Other observations

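GENCODE release 44 places 36 other genes of the files between the outer ends of the IRX clusters, 20 on chromosome 5 and 16 on chromosome 16, a list drawn up after the profiles had been seen. Of these, 17 had no count in any library, and 3 had a mean of at least 1 CPM in each experiment, namely CRNDE, IRX2-DT and ENSG00000289075. The last is a long noncoding RNA on the plus strand of chromosome 5 (2756465 to 2758583), beyond the end of IRX2-DT at 2755397. ENSG00000289075 had 2.63 and 3.15 CPM in the 0 h libraries, and 0.464, 1.08, 5.27, 11.9 and 10.2 CPM from 4 to 42 h in order of time. Its lowest library was thus 4 h, as for IRX2, and not 12 h, as for IRX2-DT. At 42 h it stood above both 0 h libraries, as IRX2-DT did, whereas IRX2 stood below both. With 0, 10, 30, 100 and 300 nM LDN ENSG00000289075 had 0.680, 0.990, 1.29, 1.54 and 2.38 CPM, and 2.26 CPM in untreated cells. The untreated value thus lay between those of 100 and 300 nM, as for IRX2. No counting intervals are given for this gene, so its order beside 100 and 300 nM is not resolved, unlike that of IRX2. ENSG00000289075 was singled out after its values were seen, so no test is given.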
